A study of Mus musculus with 4 samples.

Results

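The genes described here encode the insulin-like growth factors IGF1 and IGF2, the IGF2 receptor and the binding proteins IGFBP1 to IGFBP7. They were taken as the probes whose gene name in the authors' deposited table is one of these 10 symbols. All 10 genes had a probe, 15 probes in all, out of 26265 named genes on the array. The rule uses gene names only.

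Expression was measured on 1-colour Agilent arrays in pancreatic islets, small clusters of endocrine cells, from C57BL/6 mice aged 8 weeks. Islets were kept for 24 h in RPMI1640 medium with 5.6 mM glucose and either 30 µM GKA, a glucokinase activator, or the vehicle DMSO, and the labels do not name the compound further. Each group had 2 samples with 1 array each, and no label says that the 2 came from separate mice or cultures. The spread behind each p-value is therefore that of these arrays and may be technical. The study asked how the activator changes gene expression in islets. All 4 samples came from the same strain, age and glucose concentration, and the islets are mixed tissue with endothelial, stromal and immune cells besides the endocrine cells, so fewer cells of a type and less RNA per cell cannot be told apart.

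IGF1 and IGF2 are secreted peptides related to insulin. They act mainly through the IGF1 receptor, which shares its signalling adaptors with the insulin receptor, while the IGF2 receptor carries no kinase and takes IGF2 and mannose 6-phosphate tagged enzymes to the lysosome. The binding proteins hold the growth factors in tissue fluid and blood, block or prolong their action, and release them when proteases cleave the binding protein. In mouse islets, IGF2 made by beta cells is known to act back on the IGF1 receptor of the same cells.

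Signals are given in 2 forms, the processed intensity as deposited, which is not scaled between arrays, and the scaled signal, which is log2 of that intensity minus the array's 75th percentile. Each probe has its own brightness, so signals are compared between arrays for 1 probe, never between genes. That percentile stood at 557 and 598 units on the GKA arrays, against 751 and 755 units on the vehicle arrays, and scaling removes this difference. Between 59.7% and 63.5% of the non-control probes per array were well above background. Txnip, which is known to respond to glucose use, was higher with GKA by 2.49 ± 0.14 on the log2 scale (SE, adjusted p = 0.00341 in limma).

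The IGF family was only in part measurable, and 1 member passed the test. Of the 10 genes, 7 had a probe that the scanner software marked as well above background on both GKA arrays, on both vehicle arrays or on all, and were tested, and 5 of these were well above background on all 4 arrays. Igfbp5, a binding protein that also attaches to the extracellular matrix, was lower with GKA, with a log2 fold change of -0.73 ± 0.15 (SE, adjusted p = 0.0349 in limma over the 17178 genes tested). Of the 7 tested members 1 was called lower and 0 higher, against a background of 8.01% of all tested genes called lower, 9.11% called higher and 17.1% in either direction. The other 6 did not pass, of which Igf2r came nearest (adjusted p = 0.0575). Igfbp4 and Igfbp7 met the filter only through the vehicle arrays, where they were brighter, so a lower value with GKA was favoured for them. Over the 5 members well above background on all 4 arrays, limma had 2 higher and 1 lower at an unadjusted p under 0.05. Of all 16234 genes well above background on all 4 arrays, 2910 were higher and 2836 lower at that threshold. The median log2 fold change of these 5 members was 0.40, against -0.47 over all 7, and -0.01 over all genes tested. The sign of the median thus turns with Igfbp4 and Igfbp7.

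**Figure D1:**
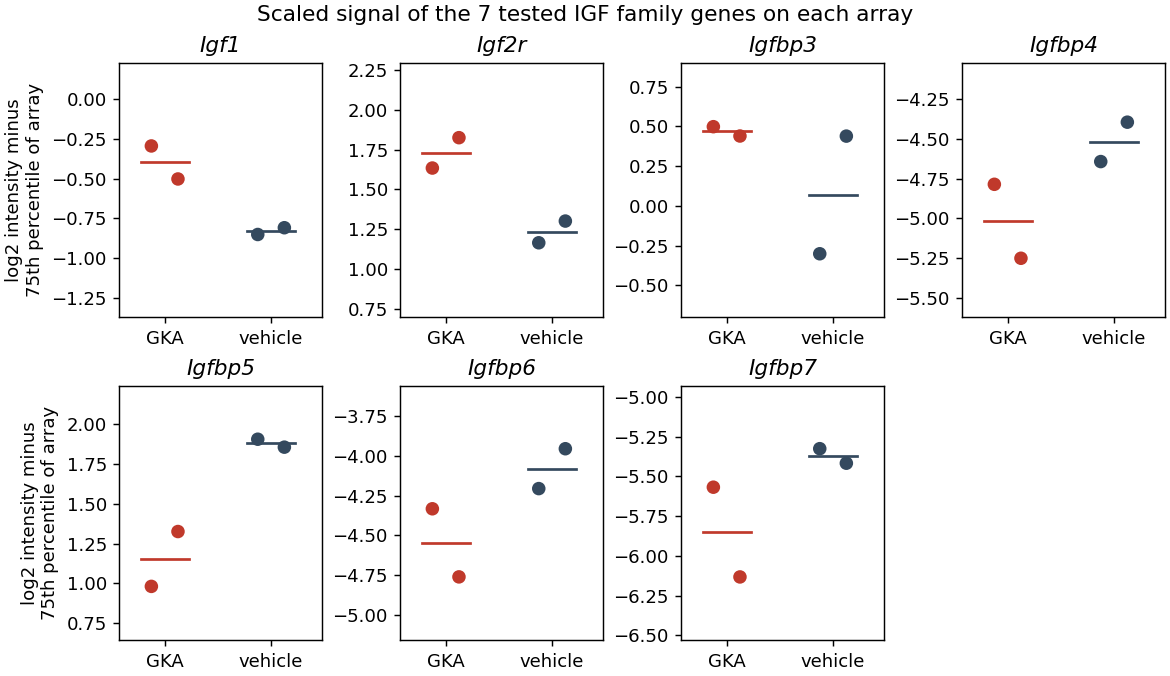
Scaled log2 signal (vertical axis, each panel with its own range of equal height) of the 7 tested genes on the 2 GKA arrays (red) and the 2 vehicle arrays (dark blue), with lines at the group means. Both GKA points lie below both vehicle points for Igfbp4, Igfbp5, Igfbp6 and Igfbp7 and above them for Igf1, Igf2r and Igfbp3, with the vehicle points of Igfbp3 furthest apart.

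The promoters of Igfbp5, the member that passed, and of Igf2r, the member nearest to the threshold among the others, are shown because these genes differed in opposite directions. RefSeq (GRCm38.p6) gave 14 promoters for the 10 genes, each reaching from 250 bases before to 50 bases after a transcript's start. Capitals mark every match, on either strand, to 8 motifs. They are the TATA box (TATAAA), a variant of it (TTTAAA) that was added after reading the sequence, the E-box (CACGTG), the full cyclic AMP response element or CRE (TGACGTCA), the short CRE (TGACG), the AP-1 site (TGANTCA), the GC box (GGGCGG) and the forkhead site (GTAAACA).
Igfbp5 (GRCm38.p6 chr1:72874816-72875115, minus strand): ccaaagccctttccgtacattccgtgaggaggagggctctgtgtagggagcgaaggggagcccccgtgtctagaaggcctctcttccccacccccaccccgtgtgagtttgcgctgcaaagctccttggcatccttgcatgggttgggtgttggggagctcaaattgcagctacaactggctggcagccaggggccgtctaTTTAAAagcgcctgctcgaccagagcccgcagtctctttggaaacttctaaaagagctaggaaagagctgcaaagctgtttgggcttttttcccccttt
Igf2r (GRCm38.p6 chr17:12769657-12769956, minus strand): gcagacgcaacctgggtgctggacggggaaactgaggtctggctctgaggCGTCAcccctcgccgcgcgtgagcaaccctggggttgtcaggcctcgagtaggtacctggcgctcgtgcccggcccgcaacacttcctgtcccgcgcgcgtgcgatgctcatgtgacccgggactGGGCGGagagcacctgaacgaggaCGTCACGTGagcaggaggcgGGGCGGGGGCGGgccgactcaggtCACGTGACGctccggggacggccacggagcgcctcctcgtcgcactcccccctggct

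In the Igfbp5 promoter, TTTAAA at -49 from the start was the only match to these motifs. The Igf2r promoter had 2 E-boxes, 3 short CREs and 3 GC boxes, and both E-boxes shared bases with a short CRE. Over all 32851 promoters of the same length in the table, 13.2% held TTTAAA, 13.6% the TATA box, 7.15% an E-box, 20.8% a short CRE, 1.79% a full CRE, 7.81% an AP-1 site, 35.7% a GC box and 3.65% the forkhead site. Among the other members with 1 promoter, that of Igfbp4 held 1 TATA box at -28. The promoter of Igfbp6 held 1 match to TATAAA, at -148 and on the other strand. That of Igf1 held 1 AP-1 site, that of Igfbp7 held 4 GC boxes, and those of Igfbp1 and Igfbp3 held none of the 8. Igf2 and Igfbp2 have more than 1 promoter each and are not described here. A match is a description of letters and not evidence that a factor binds.

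Of the ligands, Igf1 was measurable and Igf2 was not. The probe that represents Igf1 (NM_184052, chromosome 10, 87378456 to 87378515 on build mm9) had a processed intensity of 454 and 422 on the GKA arrays, against 416 and 431 on the vehicle arrays. Before scaling the groups thus overlapped. The scaled signal was -0.29 and -0.50 with GKA, against -0.85 and -0.81 with vehicle, a log2 fold change of 0.43 ± 0.13 (95% interval 0.11 to 0.75) that did not pass (adjusted p = 0.0741 in limma). After scaling both GKA arrays lay above both vehicle arrays, and with spike-in scaling the log2 fold change was -0.055. Igf1 passed in limma-trend and, like Igf2r, with normexp background correction followed by the 75th percentile (17.4% of all genes called higher) or by quantile scaling (11.4%).

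The other 4 Igf1 probes, all listed under NM_010512, gave no common direction. The probe at 87395924 to 87395983 had 16.8 and 15.9 units with GKA, against 19.9 and 16.2 with vehicle, and a scaled log2 fold change of 0.25 ± 0.16. The probe at 87393581 to 87393640 had 11.8 and 12.9 units with GKA, against 26.1 and 14.5 with vehicle, and a scaled log2 fold change of -0.27 ± 0.28. Neither passed with each probe as its own feature (adjusted p = 0.312 and 0.527 in limma), where 16.9% of all kept probes did. Both met the filter only through the vehicle arrays, so a lower value with GKA was favoured for them. The probe at 87393561 to 87393620 shares 40 of its bases with the one before and followed it, with 12.8 and 11.5 units with GKA, against 24.0 and 13.7 with vehicle. On both overlapping probes vehicle replicate 1 was the brightest array, and the other vehicle array stood near the GKA arrays. The last probe was well above background on none of the arrays. As the mean of its 3 kept probes, Igf1 had a log2 fold change of 0.14 (adjusted p = 0.588 in limma). Only the brightest of them met the filter through both groups, so this mean also favours a lower value with GKA.

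**Figure D2:**
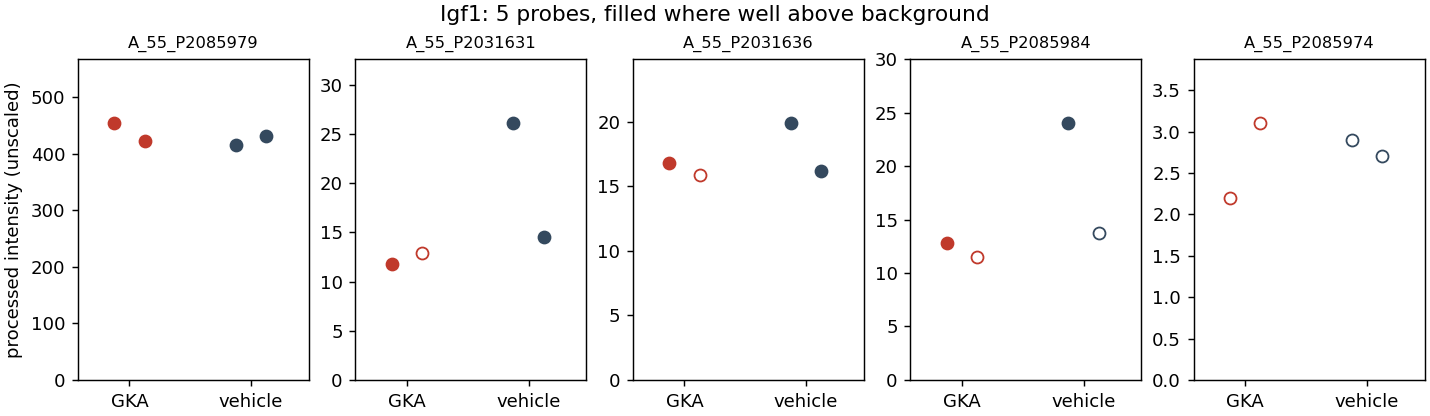
Processed intensity (vertical axis, unscaled, each panel with its own range from 0) of the 5 Igf1 probes on the GKA arrays (red) and the vehicle arrays (dark blue), filled where the spot was well above background. The leftmost probe is filled on all 4 arrays at 416 to 454 units, the next 2 panels are filled on 3 arrays, and the rightmost is open on all 4.

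Igf2 has 1 probe (NM_010514, chromosome 7, 149839661 to 149839720), which was well above background on none of the 4 arrays, with 8.3 and 8.5 units on the GKA arrays, against 6.7 and 10.1 on the vehicle arrays. No fold is given for it. The arrays thus give no level for this ligand. Both probes of H19, the imprinted non-coding RNA of the same locus, were also well above background on none. Igf2as, the antisense transcript listed now as Igf2os and named here after its values were seen, was well above background on all 4 arrays, and its scaled signal was -4.50 and -4.56 with GKA, against -4.04 and -4.65 with vehicle. Ins2, the insulin gene of that locus, did not pass, at 0.25 ± 0.11 (adjusted p = 0.171 in limma).

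The Igf2r probe (NM_010515, chromosome 17) was printed in 10 spots per array, so its spread between spots of 1 array can be read directly. That spread is only the part of the measurement error that differs between spots. Over the 9 or 10 unmarked spots, the mean scaled signal was 1.63 and 1.83 on the GKA arrays, against 1.16 and 1.30 on the vehicle arrays. The SD over spots was 0.0632 and 0.0786 on the GKA arrays, against 0.0647 and 0.0589 on the vehicle arrays. Replicate arrays of a group thus differed by more than 1 SD of the spots, and the groups did not overlap. The log2 fold change was 0.50 ± 0.13 (95% interval 0.17 to 0.83, adjusted p = 0.0575 in limma). It passed when the fit was limited to probes well above background on all 4 arrays (adjusted p = 0.0448), where 10.6% of genes were called higher, and in limma-trend (adjusted p = 0.0198), where 12.1% were. With spike-in scaling its log2 fold change was 0.011. In unscaled intensity the groups overlapped, with 1729 and 2119 units with GKA, against 1683 and 1861 with vehicle. Airn, the antisense RNA that overlaps Igf2r and silences it on the paternal chromosome in mice, did not pass, at -0.10 ± 0.33 (adjusted p = 0.854 in limma), and the log2 fold changes of its 4 kept probes ran from -0.10 to 0.49.

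Igfbp5 (NM_010518, chromosome 1, 72904829 to 72904888) was the binding protein that passed. Its processed intensity was 1099 and 1499 on the GKA arrays, against 2815 and 2736 on the vehicle arrays. Its scaled signal was 0.98 and 1.33 with GKA, against 1.91 and 1.86 with vehicle, so that both GKA arrays lay below both vehicle arrays in either form. The vehicle arrays lay close together and the GKA arrays further apart. The fold was 0.604 of vehicle (95% interval of the log2 value -1.11 to -0.34). The direction held under all 17 alternatives run, but the call was lost with any 1 array left out. The value was then -0.56 without GKA replicate 1 (adjusted p in limma 0.121) and -0.90 without GKA replicate 2 (0.0627), and -0.70 without vehicle replicate 1 (0.0818) and -0.75 without vehicle replicate 2 (0.0544). The call was also lost without the filter on dim probes (adjusted p = 0.130 in limma) and with the replicate number as a block (adjusted p = 0.0574 in limma).

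Igfbp4, Igfbp6 and Igfbp7 had lower values with GKA on both arrays but did not pass. Igfbp4, a binding protein that restrains IGF action until it is cleaved, had a scaled signal of -4.79 and -5.25 with GKA, against -4.64 and -4.39 with vehicle, a log2 fold change of -0.50 ± 0.20 (adjusted p = 0.134 in limma). Igfbp6, which prefers IGF2 over IGF1, had -4.33 and -4.76 with GKA, against -4.21 and -3.95 with vehicle, a log2 fold change of -0.47 ± 0.19 (adjusted p = 0.142 in limma). Igfbp7, a weak binder of IGFs found around blood vessels, had -5.57 and -6.13 with GKA, against -5.33 and -5.42 with vehicle, a log2 fold change of -0.48 ± 0.21 (adjusted p = 0.163 in limma). For all 3 genes GKA replicate 2 was the dimmest array and GKA replicate 1 stood nearer to the vehicle arrays.

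These 3 genes were dim. Their processed intensities ran from 8.5 to 27.6 units on the GKA arrays, against 17.7 to 48.7 on the vehicle arrays, and Igfbp4 and Igfbp7 were well above background on 1 of 2 GKA arrays. Without scaling all 3 passed, at -0.88, -0.85 and -0.86 for Igfbp4, Igfbp6 and Igfbp7, where 44.6% of all tested genes were called lower, and likewise with spike-in scaling, where 35.6% were. With spike-in scaling the fit gave every tested member the same SE of 0.27. A call there thus depends on the fold change alone and not on the gene's own spread. With normexp background correction and the 75th percentile they turned to 0.073, 0.058 and 0.15, and with normexp and quantile scaling they stood at -0.21, -0.18 and -0.15. Igfbp5 stood at -0.74 and -0.70 in the same settings.

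Igfbp3, the main carrier of IGFs in blood, differed more between the vehicle arrays than between the group means. Its scaled signal was 0.50 and 0.44 with GKA, against -0.30 and 0.44 with vehicle, and GKA replicate 2 and vehicle replicate 2 were nearly level. The log2 fold change was 0.40 ± 0.25 (adjusted p = 0.310 in limma). It was 0.030 without vehicle replicate 1, and 0.77 without vehicle replicate 2, where it passed (adjusted p = 0.0274 in limma) beside 8.87% of all genes called higher. In unscaled intensity it stood at 786 and 811 units with GKA, against 609 and 1024 with vehicle, and with spike-in scaling the log2 fold change was -0.086.

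**Figure D3:**
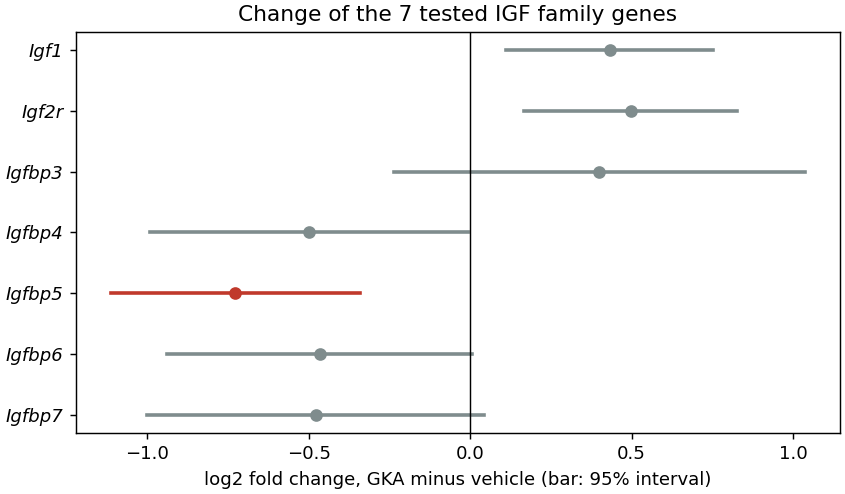
Log2 fold change of the 7 tested genes, GKA minus vehicle (horizontal axis), with 95% intervals from limma and the gene that passed in red. The interval of Igfbp5 runs from -1.11 to -0.34, and that of Igfbp3 from -0.24 to 1.04.

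Igfbp1 and Igfbp2 could not be tested. Igfbp1, a binding protein made mainly by the liver, has 1 probe, which was well above background on none of the 4 arrays. Igfbp2 has 2 probes, of which one was well above background on 1 GKA array and 1 vehicle array, at 16 and 16.4 units with GKA, against 18.5 and 17.1 with vehicle, and the other on none. The fully dim probes of Igf1, Igfbp1 and Igfbp2 gave nearly the same intensity on a given array, 2.2 to 2.3 and 3.1 to 3.3 on the GKA arrays, against 2.9 to 3.2 and 2.7 to 2.8 on the vehicle arrays. These genes are neighbours of others in the family, since Igfbp2 lies next to Igfbp5 and Igfbp1 next to Igfbp3 in the RefSeq gene table. In each of these 2 neighbouring couples 1 gene was well above background on all 4 arrays and the other was not tested. Of the other genes next to a member, Tyms-ps beside Igf1 (-0.27), Spryd3 (0.25) and Soat2 (0.14) beside Igfbp6 and Polr2b beside Igfbp7 (0.34) were tested along with Airn. In limma 0 of these 5 passed, where 17.1% of all tested genes did, and 1, Polr2b, had an unadjusted p under 0.05. At that unadjusted threshold, 2910 genes were higher and 2836 lower of the 16234 well above background on all 4 arrays.

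Taking the 7 tested members side by side, both GKA arrays lay below both vehicle arrays in 4 and above them in 3, against a background of 33.5% of all tested genes lower and 32.4% higher without overlap. Of the 4, Igfbp4 and Igfbp7 had met the filter only through the vehicle arrays, and among the 5 members measured on all 4 arrays the counts were 2 and 3. In unscaled intensity the same 4 lay lower without overlap, against 69.6% of all genes, and the other 3 overlapped. Igf1, Igf2r and Igfbp3 thus lay higher without overlap in the scaled signal but not in unscaled intensity. None of the 3 passed in limma (adjusted p = 0.0741, 0.0575 and 0.310). For Igfbp3 the nearest arrays of the groups were almost level, at 0.4392 with GKA and 0.4385 with vehicle. Over all genes tested, the median log2 fold change was -0.40 without scaling and -0.50 with spike-in scaling.

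**Figure D4:**
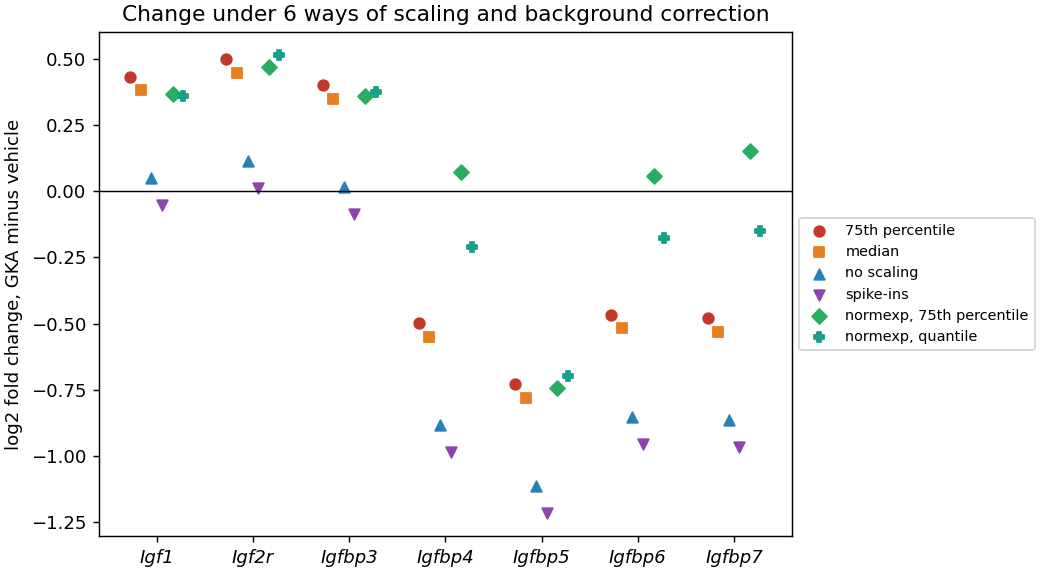
Log2 fold change, GKA minus vehicle (vertical axis), of the 7 tested genes under 6 ways of scaling and background correction (symbols). Igfbp5 lies between -0.70 and -1.21 in every one, whereas Igfbp4, Igfbp6 and Igfbp7 run from near -1 to above 0, and Igf1 and Igfbp3 fall to just below 0 with spike-in scaling.

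The receptor and adaptor genes that act on the signal of these ligands moved both ways. Of 16 tested, 3 rose, 2 fell and 11 did not pass, with a median log2 fold change of 0.05. Over all genes tested, 9.11% were called higher and 8.01% lower. Igf1r, the receptor of both ligands, rose by 1.04 ± 0.14 (adjusted p = 0.0143), the adaptor Irs2 by 1.21 ± 0.15 (adjusted p = 0.0125) and the regulatory PI3-kinase subunit Pik3r1 by 0.98 ± 0.15 (adjusted p = 0.0188). Insrr, an orphan relative of the insulin receptor, had a log2 fold change of -1.57 ± 0.26 (adjusted p = 0.0207) and Grb14, an inhibitory adaptor of the insulin receptor, named after its value was seen, of -0.55 ± 0.12 (adjusted p = 0.0401). With spike-in scaling Igf1r (0.55) and Pik3r1 (0.50) lost the call, and Irs2, Insrr and Grb14 kept it. Insr stood at -0.44 ± 0.13 and did not pass (adjusted p = 0.0756). Without GKA replicate 1 none of these 5 passed (adjusted p = 0.0512 for Irs2 and 0.0614 for Igf1r). Over all gene and marker lists, 40 genes were called, of which 6 kept the call without GKA replicate 1, 10 without GKA replicate 2, 26 without vehicle replicate 1, 33 without vehicle replicate 2, 24 with spike-in scaling and 2 without the filter on dim probes. These 40 leave out the IGF family itself and come from lists chosen with earlier results of these data known. Over all tested genes, 17.1% were called in either direction. The 2941 calls over all genes became 6576 with spike-in scaling and 223 without the filter on dim probes. The p-values of this and the next 2 paragraphs are from limma.

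Of 10 tested genes that cleave binding proteins or inhibit that cleavage, 3 rose, 0 fell and 7 did not pass. Over all genes, 9.11% were called higher and 8.01% lower. At an unadjusted p under 0.05 in limma, 4 of the 10 were higher and 0 lower. At that threshold, 2910 genes were higher and 2836 lower of the 16234 well above background on all 4 arrays. The median was 0.54, against -0.01 over all genes. Among the 10, Pappa and Stc1 met the filter only through the GKA arrays, so a higher value with GKA was favoured for them. Both did not pass. Stc2, a secreted stanniocalcin that inhibits the IGFBP-cleaving pappalysins, had a scaled signal of 0.21 and -0.26 with GKA, against -2.84 and -2.68 with vehicle. It rose by 2.73 ± 0.19 (adjusted p = 0.00385), and it passed under all 15 alternatives run for it. Plat, the tissue plasminogen activator, rose by 1.48 ± 0.18 (adjusted p = 0.0116), and the metalloprotease Adam12 by 0.61 ± 0.12 (adjusted p = 0.0278). Plat lost the call without GKA replicate 1 (adjusted p = 0.0544), and Adam12 without GKA replicate 1 (0.104), GKA replicate 2 (0.126) or vehicle replicate 1 (0.0809). Adam12 stood at 0.12 with spike-in scaling, where it did not pass. Pappa2, a pappalysin that cleaves IGFBP3 and IGFBP5, stood at 3.63 and 3.30 with GKA, against 2.87 and 2.37 with vehicle, and did not pass, at 0.84 ± 0.21 (adjusted p = 0.0521).

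Among the acid-labile subunit and proteins with an IGFBP-like domain, 3 rose, 1 fell and 3 did not pass of 7 tested. The background for the counts of called genes in this paragraph is 9.11% of all tested genes called higher and 8.01% lower. Igfals, the acid-labile subunit that holds IGF and IGFBP3 or IGFBP5 in a ternary complex, had a scaled signal of 0.69 and 0.66 with GKA, against 1.38 and 1.43 with vehicle, a log2 fold change of -0.73 ± 0.11 (adjusted p = 0.0178). Crim1 (0.83 ± 0.13), Cyr61 (now Ccn1, 0.75 ± 0.16) and Esm1 (0.52 ± 0.12), all secreted or membrane proteins with an IGFBP-like domain, rose, though Esm1 stood at 0.035 with spike-in scaling, where none of the 3 passed. The call of Igfals was lost once GKA replicate 1 was left out (adjusted p = 0.0799). Of 9 tested imprinted growth genes, Mest rose (1.09 ± 0.17) and the cell-cycle inhibitor Cdkn1c fell (-1.17 ± 0.21). Of 8 genes of the growth hormone axis, which drives Igf1 in liver, Stat5a (-0.86 ± 0.12) and Stat5b (-0.89 ± 0.15) fell and 0 rose, also at an unadjusted p under 0.05. None of 12 genes of mannose 6-phosphate sorting, the lysosomal route that Igf2r serves, passed, a count of 0 in limma with 1 at an unadjusted p under 0.05. Of the 3 IGF2 mRNA-binding proteins only Igf2bp2 was tested, at 0.26 ± 0.11 (adjusted p = 0.168).

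**Figure D5:**
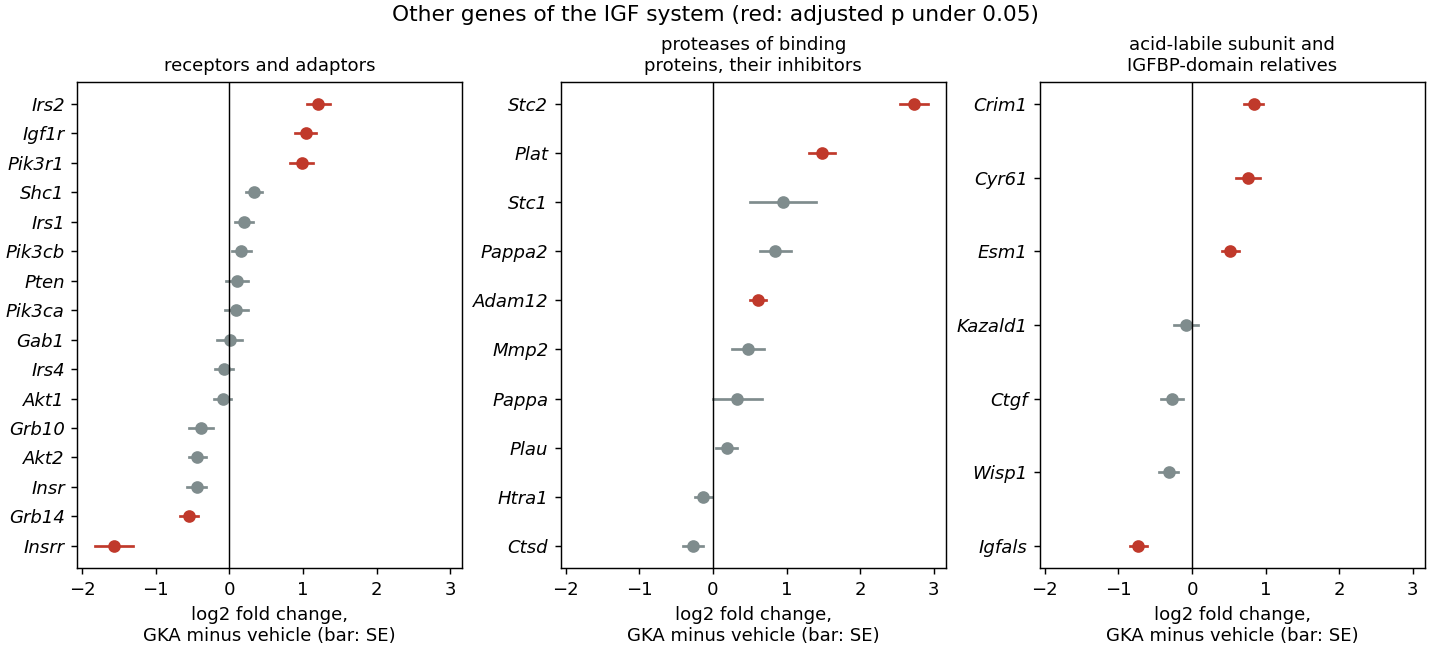
Log2 fold change with SE, GKA minus vehicle (horizontal axis), of the tested genes of 3 lists around the IGF family, with genes past the threshold in red. Stc2 lies furthest to the right at 2.73 and Insrr furthest to the left at -1.57.

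Marker genes of other cells in the islet preparation also differed, and their part in the changes of the IGF genes was not tested. The background for the counts of called markers is 8.01% of all tested genes called lower and 9.11% called higher. For the counts at an unadjusted p under 0.05, it is 2910 higher and 2836 lower of 16234 genes well above background on all 4 arrays. Of 15 tested leukocyte markers 6 were lower and 1 higher, with a median of -0.70, and their summed scaled intensity was 11.1 to 12.6 times the 75th percentile on the GKA arrays, against 12.7 to 15.4 on the vehicle arrays. Among the lower ones were C1qa (-0.99 ± 0.23) and Aif1 (-1.56 ± 0.28), and the higher one was Cd14 (1.32 ± 0.27). Lyz2, also among the lower ones, met the filter only through the vehicle arrays, where it was brighter. Cd14 and Lyz2 are named after their values were seen. Of 12 tested markers of fibroblasts, stellate cells and pericytes, Col1a2 was lower (-0.87 ± 0.13) and Thy1 higher (0.64 ± 0.12), with a median of -0.28 and a summed intensity of 6.83 to 7.49 with GKA, against 7.91 to 9.91 with vehicle. Of 13 endothelial markers 3 were higher and 1 lower, with a median of 0.046. Their summed intensity was 63.0 to 69.5 with GKA, against 56.1 to 56.8 with vehicle, and Esm1, 1 of the 3 higher ones, holds a large part of that sum. Beta-cell markers, which belong to the labelled tissue, were tested in all 10 cases, with 3 higher and 0 lower in limma (6 and 0 at an unadjusted p under 0.05). Of 6 tested acinar markers the transcription factor Bhlha15 was higher (1.37 ± 0.12) and 0 were lower, with a median of -0.033, and the 5 enzyme and cofactor genes among them did not pass, at -0.40 to 0.25. The summed intensity of the list was 8.47 to 9.08 with GKA, against 3.67 to 4.04 with vehicle, most of it the signal of Bhlha15. Of the tested alpha-cell markers 1 of 7 was higher and 0 lower, of the delta-cell and PP-cell markers 1 of 5 and 0, of the duct markers 1 of 8 and 2, and of the neural and Schwann-cell markers 2 of 7 and 1.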

How the data were processed

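Per the file headers, the intensity of each spot was made with Agilent Feature Extraction 10.7.3.1 (protocol for 1-colour arrays, build mm9), while the submitters' processing notes name version 9.1. The deposited intensities are background-subtracted, detrended and not scaled between arrays. The authors' deposited table holds 1 intensity per group and probe, equal to the mean of the 2 arrays within 0.1% for all probes with 1 spot, and the ratio of GKA over control. The ratio was used only as an alternative.

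Control spots and spots marked as outliers were removed, and repeat spots of 1 probe were averaged as log2. Each array's 75th percentile was subtracted. Of 39429 non-control probes, 33697 carry a gene name, and 22139 were kept as well above background on both arrays of a group. Each gene took its brightest kept probe. GKA and vehicle were compared with limma 3.58.1 in R 4.3.3 (two-sided, Benjamini-Hochberg over 17178 genes, threshold 0.05, 2 residual and 3.33 prior degrees of freedom). The fit was also run on simulated arrays with the independent normal noise that it assumes. That run checks the code and cannot show how the fit does on these arrays. An exact permutation test of 4 arrays cannot give a p below 0.333 and was not used. The files hold no mean signal, so normexp used the median signal.

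The members, gene lists and the rule for named genes (all members, the largest passing genes of each list, neighbouring genes) were chosen with earlier results of these data known. Genes carry the symbols of the array's design, with current symbols from RefSeq (GRCm38.p6), which was used for names, neighbours and promoters only. All 10 members matched. All arrays share a slide and a scan, and position on the slide and group cannot be told apart. No spot was saturated, a count of 0 on each array. Replicate numbers were not taken as pairing, since with 2 samples per group nothing in the labels says they do. The number of arrays limits the precision.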

Additional observations from a re-analysis of the deposited data

How the results depend on the processing

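The 2941 genes changed over the whole array became 8404 without scaling, 6576 with spike-in scaling, 5045 with normexp and the 75th percentile, 223 without the filter on dim probes and 533 to 2835 when 1 array was left out. The share of higher genes among them was 53.2%, against 42.8% with median scaling, 8.92% without scaling and 7.12% with spike-in scaling, and, the other way, 70.0% without the filter, 61.4% without GKA replicate 2 and 59.3% with normexp and the 75th percentile. Of the 4 arrays, leaving out GKA replicate 1 (620) or GKA replicate 2 (533) left the fewest calls. The mean log2 spike-in signal was 8.84 and 9.04 on the GKA arrays, against 8.998 and 8.68 on the vehicle arrays. Under spike-in scaling all tested members had the same SE of 0.27, so calls there follow the fold change and not each gene's spread. Members called higher went to 2 with either normexp setting (both added after seeing the data) or limma-trend, 1 when limited to probes well above background on all 4 arrays, and 0 to 1 with 1 array left out. Members called lower went to 4 without scaling or with spike-in scaling, and to 0 without the filter, where more dim genes share the fit, and with any array left out.

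Igf1 reversed to -0.055 with spike-in scaling and passed at 0.37 with normexp and the 75th percentile, 0.36 with normexp and quantile and 0.43 in limma-trend (0.33 to 0.54 with 1 array left out). As the mean of its 3 kept probes, of which only the brightest met the filter through both groups, Igf1 stood at 0.14 (adjusted p = 0.588 in limma). Igf2r passed at 0.47 and 0.51 with these normexp settings and at 0.50 in limma-trend and when limited to probes well above background on all arrays (0.40 to 0.59). Igfbp3 reversed to -0.086 with spike-in scaling and passed at 0.77 without vehicle replicate 2 (0.030 to 0.77). Igfbp4, Igfbp6 and Igfbp7 passed at -0.88, -0.85 and -0.86 without scaling and at -0.99, -0.95 and -0.97 with spike-in scaling, and reversed to 0.073, 0.058 and 0.15 with normexp and the 75th percentile (-0.73 to -0.27, -0.68 to -0.25 and -0.76 to -0.20 with 1 array left out). Igfbp5 kept -0.73 without the filter but did not pass, and ran from -0.90 to -0.56 with 1 array left out. Without GKA replicate 1 the log2 fold changes of Igfbp4, Igfbp6 and Igfbp7 were further from 0 than that of Igfbp5. The log2 of the ratio in the authors' deposited table was 0.048 for Igf1, 0.12 for Igf2r, -0.032 for Igfbp3, -0.88 for Igfbp4, -1.10 for Igfbp5, -0.85 for Igfbp6 and -0.85 for Igfbp7. Those ratios are of means of unscaled intensities, and without scaling Igf1 stood at 0.048 and Igfbp5 at -1.11. Beyond that, the cause of the differences between settings was not tested.

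With the replicate number as a block, 1916 genes passed and 0 members, Igfbp5 standing at -0.73 with an adjusted p = 0.0574 in limma. The labels do not say that the numbers pair samples, and the within-group differences of the 2 groups correlated with r = 0.0751 across genes, which are not independent replicates. Normexp on the mean signal, as planned, was not run because the files hold no such column. Signal over background limits Igf2, Igfbp1, Igfbp2, Igfbp4, Igfbp6 and Igfbp7.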
